A study of Mus musculus with 8 samples.

Results

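Nuclear genes of respiratory complexes II to V were compared between livers of mice with and without hepatocyte loss of Bicd2, all in a model of autoimmune hepatitis. The members were all genes of the deposited expression table whose symbol marks a subunit or assembly factor of succinate dehydrogenase (Sdh), a subunit of complex III (Uqcr, Cyc1), cytochrome c (Cycs), or a nuclear subunit of complex IV (Cox4 to Cox8) or of ATP synthase (Atp5). This gave 48 of the 13703 rows. There were 4 members in complex II and 4 among its assembly factors, 9 in complex III, 1 for cytochrome c, 13 in complex IV and 17 in complex V.

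Complex II passes electrons from succinate to ubiquinone. Complex III moves them on to cytochrome c, complex IV passes them to oxygen, and the proton gradient built on the way drives ATP synthesis by complex V. Most of these subunits are encoded in the nucleus and imported, while the cores of complexes III, IV and V also hold subunits made from mitochondrial DNA. Hepatocytes are rich in mitochondria and use the chain for fatty acid oxidation, gluconeogenesis and urea synthesis.

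The Alb-Cre group held livers of Alb-Cre Bicd2fl/fl mice, in which Cre recombinase driven by the albumin promoter acts in hepatocytes, and the Alb-WT group those of Alb-WT Bicd2fl/fl mice, which carry the floxed alleles without that Cre. Bicd2 encodes an adaptor between the dynein motor and its cargo. Mice of both groups were given S-100, a soluble liver antigen preparation in complete Freund's adjuvant, by intraperitoneal injection. The dose was 2.5 mg, repeated each week over 3 weeks, and the interval between the final dose and collection of the liver was 2 weeks. The labels give no age and no sex, and no liver without the hepatitis model was analysed here. RNA of whole liver was sequenced in 4 libraries of each group. The labels do not say that the libraries came from separate animals, so p-values cover only the spread among these libraries, part or all of which may be technical.

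Bicd2 was 0.705, 0.568, 0.509 and 0.732 FPKM in Alb-Cre livers (replicates 1 to 4) and 2.46, 3.02, 2.8 and 3.11 FPKM in Alb-WT replicates 1 to 4. FPKM is a read number scaled to the length of the gene and to the read total of the library. The groups did not overlap for this gene (limma on log2(FPKM + 1), log2 fold change -1.24, SE 0.0824, adjusted p = 7.25e-05). This scale understates the fold change of genes at such low levels. Read totals behind the FPKM values were 32793770 to 39157210 per library. Replicate 4 of Alb-Cre differed from the rest of its group, with a median FPKM over all rows of 2.76, against 2.13 to 2.15 in Alb-Cre replicates 1 to 3 and 2.73 to 2.83 in Alb-WT.

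Among the 47 members tested, 27 rose in Alb-Cre livers, 0 fell and 20 did not pass. The test was limma on log2(FPKM + 1) over all 11077 rows that averaged 0.5 FPKM or more, with calls at a Benjamini-Hochberg adjusted p under 0.05. Over all tested rows 8.48% were called higher and 23.3% lower. The median log2 fold change was 0.34 over the members (range -0.16 to 0.77) and -0.13 over all tested rows, and 45 of the 47 members had a positive value. The differences were small, and the largest among called members, that of Cycs, was 1.52-fold on the FPKM scale. In bulk liver, fewer cells of a type and less RNA per cell cannot be told apart.

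The levels of Alb-Cre and Alb-WT libraries did not overlap for 24 of the 47 members, all of them higher in Alb-Cre, against 9.27% of all tested rows in that direction. No member lay lower in Alb-Cre without overlap, against 21.4% of all tested rows. The count of calls changed with the library left out, and the shares of all rows called changed too. It was 9 of 47 without Alb-Cre replicate 1 (5.14% of all rows called higher and 11.1% lower), Alb-Cre replicate 3 (5.21% and 11.4%), Alb-WT replicate 1 (5.05% and 11%) or Alb-WT replicate 3 (4.93% and 10.9%). It was 22 without Alb-Cre replicate 2 (6.8% and 12.8%), 18 without Alb-WT replicate 2 (5.62% and 12.8%) and 17 without Alb-WT replicate 4 (6.07% and 13.8%). The count was highest, at 34, without Alb-Cre replicate 4 (15.2% and 46.1%). The median of the members stayed between 0.30 and 0.39 when any single library was left out. The median of all tested rows was -0.01 with median-of-ratios scaling, where 33 members were called higher (15.6% of all rows, member median 0.50), and 0.02 with quantile normalization, where 15 were (14% of all rows, member median 0.25). After rescaling to a common FPKM sum it was -0.19, and 17 members were called higher (5.62% of all rows, member median 0.25). Of all rows 15%, 13.3% and 27.2% were called lower with these scalings in turn, but no member was. With limma-voom on read numbers recovered from the FPKM values, an alternative added after the data were seen, 29 members were called higher and 0 lower, against 8.45% and 25.9% of all rows. Length correction means that the trend of each library on gene length (merged exons) or on the length of the principal transcript was removed, the second of these also added after the data were seen.

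The 9 members called whichever library was left out were Sdhb of complex II, Uqcrc1 and Cyc1 of complex III, Cycs, Cox7a2 and Cox7b of complex IV, and Atp5pb, Atp5g1 and Atp5o of complex V. They were chosen as a set after their values were seen. For the other 18 called members the adjusted p without at least 1 library lay between 0.0501 and 0.127.

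**Figure D1:**
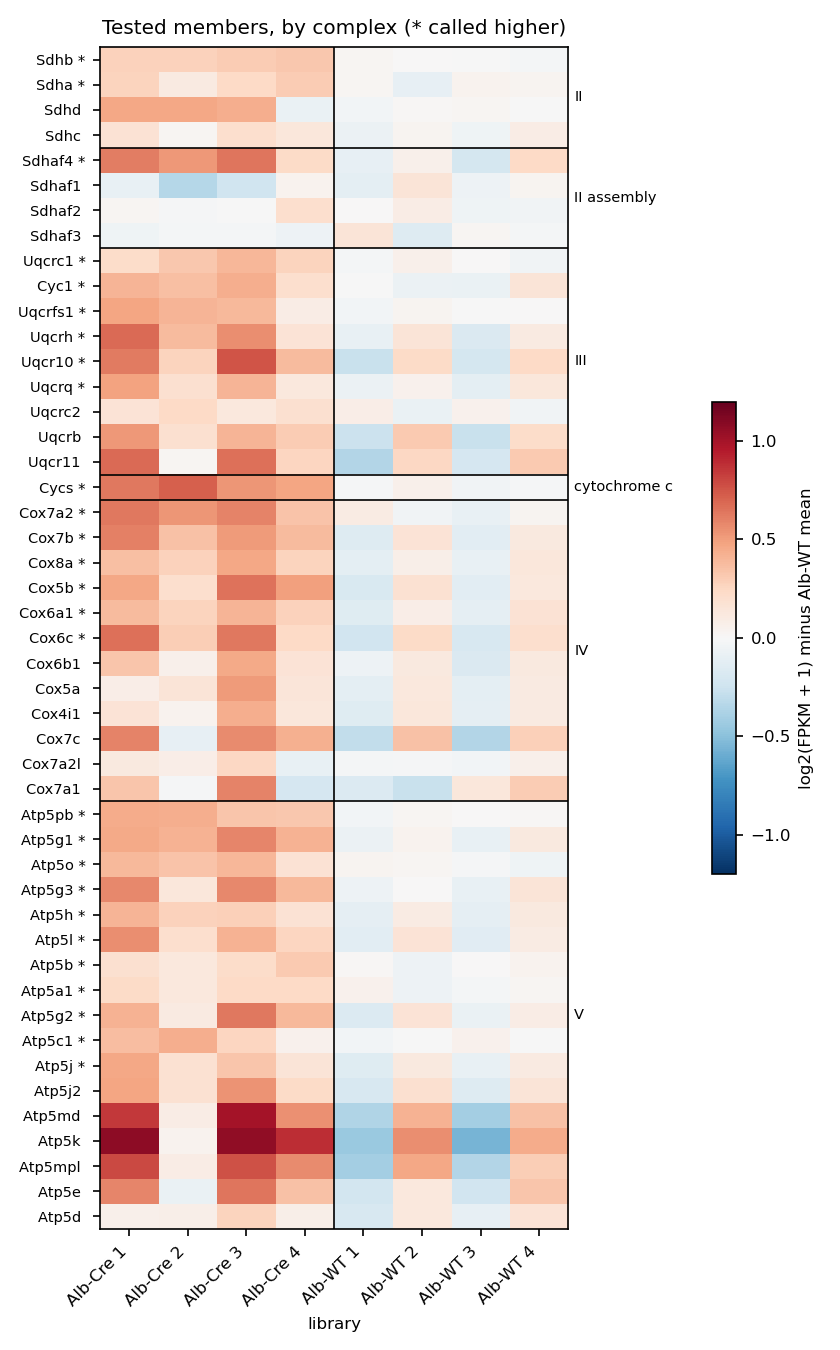
Log2(FPKM + 1) of each tested member in each library (columns, Alb-Cre left of Alb-WT), less the mean of the 4 Alb-WT libraries. Rows are grouped by complex and ordered by p, an asterisk marks members called higher by limma, and red is above the Alb-WT mean. Most rows are red across the Alb-Cre columns, with paler cells in Alb-Cre replicates 2 and 4 and a split of Alb-WT replicates 2 and 4 from 1 and 3 in several rows.

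Windows around the start site were searched for letters bound by known regulators of mitochondrial genes, since most members had a positive fold change. RefSeq windows of GRCm38.p6, from 250 bases before to 50 after the start, matched 39 of the 48 members. The letters searched, on both strands, were GCGCA and GCGC with any single base between them for NRF1, CCGGAAG for GABPA, AAGATGGCG for YY1 and TCAAGGTCA for the ERR receptors. No match of one motif overlapped a match of another in the members' windows. NRF1 letters stood in 12 of 39 members (30.8%), against 11.8% of the 8846 tested genes with a window and 4.6% of all 32851 windows. GABPA letters stood in 16 members (41%), against 20.6% of tested genes and 8.86% of all windows. YY1 letters stood in 2 members (5.13%), against 3.8% of tested genes and 1.4% of all windows, and ERR letters also in 2, against 0.328% and 0.423%. Among called members 9 of 23 held NRF1 letters and 7 of 23 GABPA letters, and among those not called 3 of 16 and 9 of 16 did. A match describes the letters only.

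The windows of 4 members are shown as the 250 bases before the start, 5′ to 3′ on the strand of the gene, with matches in capitals. Cycs, the member with the largest fold change among those called, held no exact match to any of the letters searched. The stretch tcgcatgcgc in its window differs from the NRF1 letters only in its leading base, and near matches were not counted. Sdha held 3 NRF1 matches. Sdhd, which was not called, held an NRF1 and a GABPA match here and an ERR match after the start. Cox6a1, the member with the highest mean FPKM, held 2 NRF1 matches and a GABPA match.
Cycs (chr6:50566570-50566819, minus strand): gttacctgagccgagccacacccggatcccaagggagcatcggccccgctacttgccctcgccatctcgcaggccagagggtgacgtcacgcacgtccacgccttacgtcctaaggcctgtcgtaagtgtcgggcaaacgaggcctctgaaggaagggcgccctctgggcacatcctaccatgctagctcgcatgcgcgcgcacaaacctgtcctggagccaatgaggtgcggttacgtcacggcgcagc
Sdha (chr13:74350241-74350490, minus strand): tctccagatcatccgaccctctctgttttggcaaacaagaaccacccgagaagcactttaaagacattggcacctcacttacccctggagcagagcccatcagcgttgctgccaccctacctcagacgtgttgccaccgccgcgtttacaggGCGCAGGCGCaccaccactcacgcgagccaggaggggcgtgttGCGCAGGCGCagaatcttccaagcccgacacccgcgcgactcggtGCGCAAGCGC
Sdhd (chr9:50603850-50604099, minus strand): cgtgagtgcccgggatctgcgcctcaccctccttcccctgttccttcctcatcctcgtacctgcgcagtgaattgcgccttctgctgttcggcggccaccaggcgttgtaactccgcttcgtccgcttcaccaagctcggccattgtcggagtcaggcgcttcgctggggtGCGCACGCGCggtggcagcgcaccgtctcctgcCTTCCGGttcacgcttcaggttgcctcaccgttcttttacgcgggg
Cox6a1 (chr5:115348959-115349208, minus strand): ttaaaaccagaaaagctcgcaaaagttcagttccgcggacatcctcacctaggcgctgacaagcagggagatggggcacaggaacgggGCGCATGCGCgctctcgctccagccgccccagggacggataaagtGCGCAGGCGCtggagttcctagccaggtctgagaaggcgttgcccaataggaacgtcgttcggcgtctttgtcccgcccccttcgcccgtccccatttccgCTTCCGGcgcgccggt

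Complex II is the only one of the 4 with no mitochondrially encoded subunit, and it also serves the tricarboxylic acid cycle. Of its 4 subunits 2 rose, and the median log2 fold change was 0.26. With quantile normalization 0 were called (median 0.13), and with median-of-ratios scaling 3 were (median 0.43). In these settings in turn 8.48%, 14% and 15.6% of all rows were called higher. Sdhb, the iron-sulfur subunit, was 70.9, 71.1, 72.4 and 73.6 FPKM in Alb-Cre replicates 1 to 4 and 59.6, 58.6, 58.2 and 57.4 FPKM in Alb-WT replicates 1 to 4. Every Alb-Cre library lay above every Alb-WT library, with little spread in either group (log2 fold change 0.30, SE 0.052, limma adjusted p = 0.0055). The call for Sdhb was lost with quantile normalization, where the log2 fold change was 0.15 (adjusted p = 0.0979).

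Sdha, the flavoprotein that oxidizes succinate and whose promoter window is shown above, was 94.4, 84.3, 92.3 and 96.8 FPKM in Alb-Cre and 79.5, 72.8, 80.6 and 80.3 FPKM in Alb-WT. The groups did not overlap, and in each group replicate 2 was the lowest (log2 fold change 0.23, SE 0.0681, limma adjusted p = 0.034). Leaving out any 1 of 6 libraries (Alb-Cre 1 or 3, or any of Alb-WT) took the adjusted p to between 0.0629 and 0.0922. The call was also lost with quantile normalization (0.11, adjusted p = 0.293) and with a common FPKM sum (0.14, adjusted p = 0.211).

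Sdhd, a membrane anchor, was 151, 151, 148 and 103 FPKM in Alb-Cre and 107, 110, 111 and 109 FPKM in Alb-WT. Its mean FPKM was the highest of the complex II subunits. Replicates 1 to 3 of Alb-Cre lay above all Alb-WT libraries and replicate 4 below them. The gene was not called with all libraries (log2 fold change 0.32, SE 0.123, limma adjusted p = 0.0733) and was called without Alb-Cre replicate 4 (0.45, adjusted p = 3.69e-06). Sdhc, the other anchor and the subunit with the lowest level, was 49.8, 44.8, 51.1 and 48.6 FPKM in Alb-Cre and 42.1, 45.3, 42.5 and 47 FPKM in Alb-WT. These ranges overlapped (log2 fold change 0.13, limma adjusted p = 0.151).

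In the FPKM as deposited the 4 assembly factors of complex II showed no common direction (median log2 fold change 0.01). Their median was 0.17 with gene length correction and 0.21 with quantile normalization. In each of these settings 2 of the 4 were called higher, against 12.5% and 14% of all rows. Sdhaf4, which binds the flavoprotein during assembly, rose, with 17.3, 16.1, 17.6 and 13 FPKM in Alb-Cre and 10.2, 11.5, 9.35 and 13.1 FPKM in Alb-WT. Alb-Cre replicate 4 lay just below Alb-WT replicate 4, and the other 3 Alb-Cre libraries lay above all of Alb-WT (log2 fold change 0.50, limma adjusted p = 0.0177). Without Alb-Cre 1 or 3 or Alb-WT 1 or 3 its adjusted p was 0.053 to 0.0545. Sdhaf3, a factor for the iron-sulfur subunit with the lowest level of the 4, was 1.66, 1.72, 1.72 and 1.64 FPKM in Alb-Cre and 2.07, 1.47, 1.8 and 1.72 FPKM in Alb-WT. Its values overlapped throughout, and the sign of its log2 fold change, -0.04, turned under 7 alternatives.

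Sdhaf1, another factor for the iron-sulfur subunit, had the lowest fold change of all members (-0.16, limma adjusted p = 0.245) and is named for that after its values were seen. It was 4.87, 3.93, 4.3 and 5.43 FPKM in Alb-Cre and 4.75, 5.93, 4.97 and 5.38 FPKM in Alb-WT. Without Alb-Cre replicate 4 it became the only member called lower (-0.22, adjusted p = 0.0402), where 46.1% of all rows were called lower. Sdhaf2, which attaches FAD to the flavoprotein, did not pass in the FPKM as deposited (log2 fold change 0.05). It was called higher under 6 of 19 alternatives. Among these were gene length correction (0.23, limma adjusted p = 0.0209) and quantile normalization (0.24, adjusted p = 0.018), while it was -0.01 with a common FPKM sum.

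**Figure D2:**
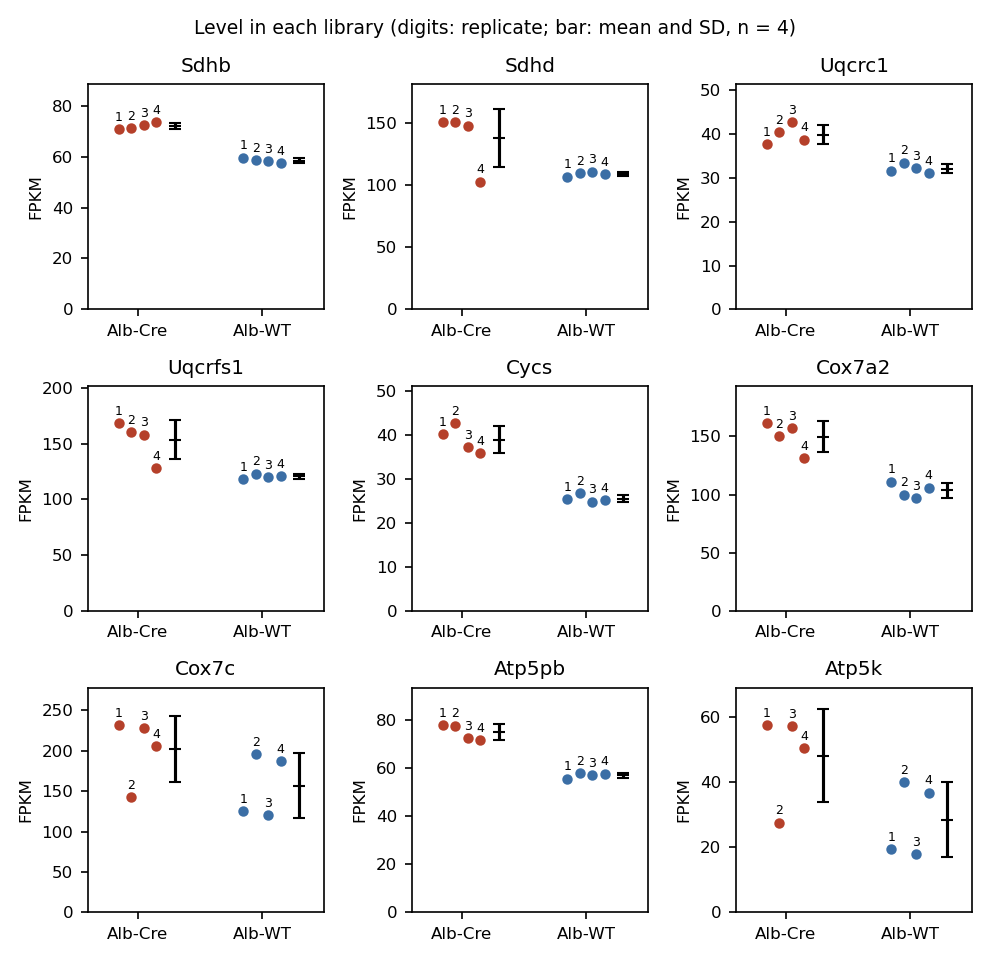
FPKM of 9 members in each library, with Alb-Cre left of Alb-WT, replicate numbers beside the points, and the mean with its SD (n = 4 each) to the right of each group. Sdhb, Uqcrc1, Uqcrfs1, Cycs, Cox7a2 and Atp5pb show no overlap between groups, Sdhd has Alb-Cre replicate 4 at 103 FPKM below all Alb-WT libraries, and Cox7c and Atp5k overlap, with Alb-WT replicates 2 and 4 above 1 and 3.

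In complex III 6 of 9 members rose, against 8.48% of all tested rows, with a median log2 fold change of 0.35. With quantile normalization and with the trend on principal transcript length removed 3 were called, against 14% and 11.9% of all rows. Uqcrc1, a core subunit of the matrix side and the lowest in level of the 9 at 36 FPKM, was 37.7, 40.4, 42.8 and 38.8 FPKM in Alb-Cre and 31.7, 33.5, 32.3 and 31.1 FPKM in Alb-WT. Every Alb-Cre library was above every Alb-WT library, and the call held under all 20 alternatives (log2 fold change 0.30, SE 0.0614, limma adjusted p = 0.00934).

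The nuclear-encoded redox subunits of complex III are cytochrome c1 (Cyc1) and the Rieske iron-sulfur protein (Uqcrfs1). Cyc1 was 75.1, 72.5, 76.5 and 64.7 FPKM in Alb-Cre and 56.1, 53.4, 53.1 and 62.7 FPKM in Alb-WT. The closest pair was Alb-Cre replicate 4 and Alb-WT replicate 4, and the groups did not overlap (log2 fold change 0.35, SE 0.0802, limma adjusted p = 0.0141). Uqcrfs1 was 168, 160, 158 and 128 FPKM in Alb-Cre and 118, 123, 120 and 121 FPKM in Alb-WT. Again Alb-Cre replicate 4 lay nearest to Alb-WT (log2 fold change 0.34, SE 0.0889, limma adjusted p = 0.0226). That call was lost without any 1 of the other 7 libraries (adjusted p = 0.0525 to 0.0669), while without Alb-Cre replicate 4 it was called (0.42, adjusted p = 1.11e-05). It was also lost with quantile normalization (0.21, adjusted p = 0.0854), and with gene and principal transcript length correction (adjusted p = 0.0878 and 0.0635).

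The hinge subunit Uqcrh and the small subunits Uqcr10 and Uqcrq were also called, with log2 fold changes of 0.44, 0.51 and 0.30, and each lost its call without any 1 of at least 4 libraries and with the principal transcript length correction (adjusted p = 0.0866 for Uqcrh, 0.0631 for Uqcr10 and 0.0703 for Uqcrq). Uqcr11, a small subunit with the highest level in the complex, was 248, 157, 246 and 185 FPKM in Alb-Cre and 121, 184, 134 and 192 FPKM in Alb-WT. Alb-Cre 1 and 3 were high, and the other 2 Alb-Cre libraries lay within the Alb-WT range (log2 fold change 0.40, SE 0.197, limma adjusted p = 0.138). Uqcrb (0.36) and the core subunit Uqcrc2 (0.18) were not called either. Uqcrc2 was the single member without a call whose groups did not overlap, at 58.6 to 63.4 FPKM in Alb-Cre and 50.7 to 56.7 FPKM in Alb-WT (limma adjusted p = 0.0529).

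Cytochrome c, the mobile carrier between complexes III and IV and also a trigger of apoptosis once released, had the smallest p of all members. Cycs was 40.2, 42.7, 37.3 and 35.9 FPKM in Alb-Cre and 25.4, 26.8, 24.9 and 25.3 FPKM in Alb-WT. The lowest Alb-Cre library stood well above the highest Alb-WT library. The means were 39 ± 3.02 FPKM in Alb-Cre and 25.6 ± 0.82 FPKM in Alb-WT (SD, n = 4 each, log2 fold change 0.59, SE 0.0688, limma adjusted p = 0.000912). Without any single library the log2 fold change stayed between 0.54 and 0.62 and the adjusted p did not exceed 0.00612. The GENCODE M21 annotation lists 2 entries named as pseudogene copies of Cycs. Such names were found for 5 members in all (Cycs, Uqcrh, Atp5l, Atp5c1 and Atp5k), and copies under other names were not searched for. How reads shared with such copies were counted is not given in the sources used here, so levels of at least these 5 are uncertain.

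**Figure D3:**
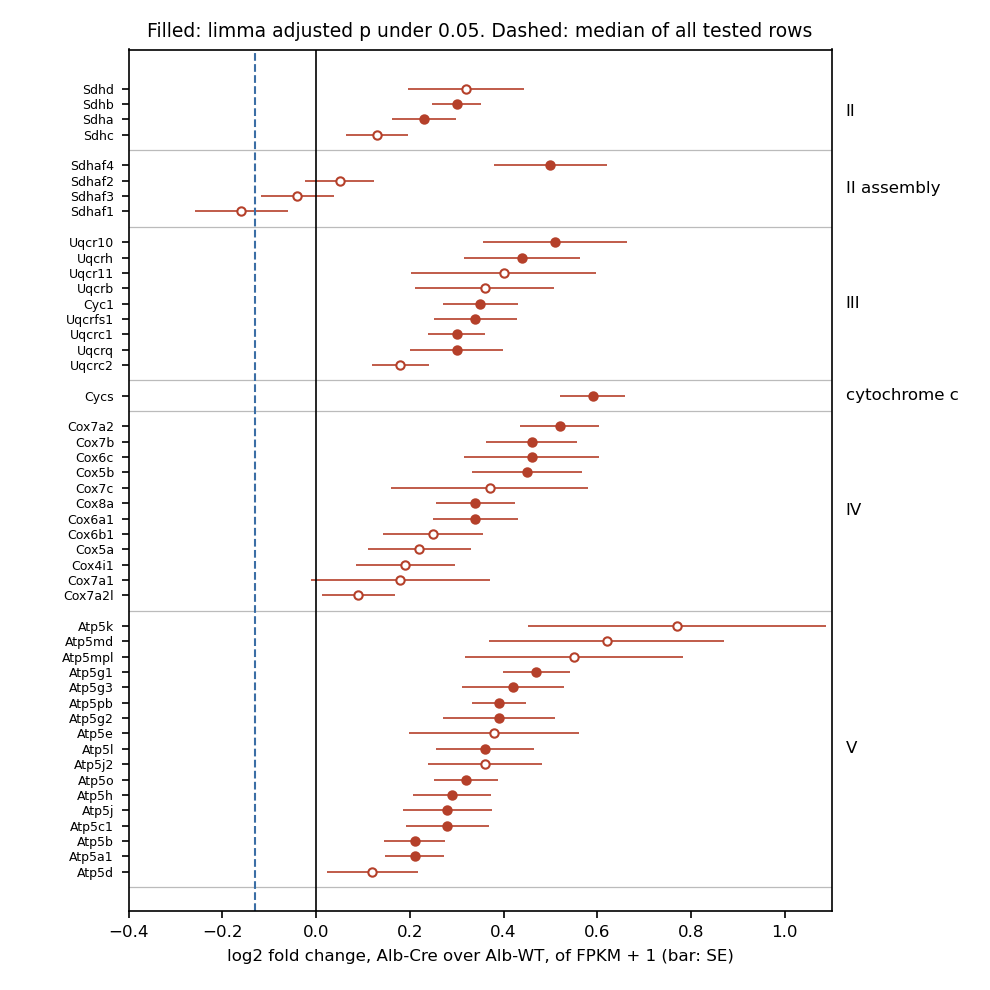
Log2 fold change of each tested member (horizontal axis, Alb-Cre over Alb-WT, on log2(FPKM + 1)), by complex, with bars of 1 SE from limma. Filled points passed at an adjusted p under 0.05, and the dashed line is the median of all tested rows at -0.13. All points lie right of 0 except Sdhaf1 and Sdhaf3, and the widest bars are those of Atp5k, Atp5md, Atp5mpl and Cox7c.

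In complex IV 12 of 13 members were tested, 6 rose and the median log2 fold change was 0.34. With gene length correction 4 were called (median 0.21), and with principal transcript length correction 3 were (median 0.14). In these settings in turn 8.48%, 12.5% and 11.9% of all rows were called higher, the first of them being the FPKM as deposited. Cox7a2, the form of subunit 7A found in liver, was 161, 150, 157 and 131 FPKM in Alb-Cre and 111, 100, 96.8 and 106 FPKM in Alb-WT. The groups did not overlap (log2 fold change 0.52, SE 0.084, limma adjusted p = 0.00367). Cox7b, a further small subunit, was 171, 144, 161 and 147 FPKM in Alb-Cre and 101, 126, 103 and 122 FPKM in Alb-WT. There was again no overlap, although Alb-WT 2 and 4 lay above Alb-WT 1 and 3 (log2 fold change 0.46, SE 0.0975, limma adjusted p = 0.011). Both calls held under all 20 alternatives.

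Cox8a, the ubiquitous form of subunit 8, was 255, 241, 275 and 239 FPKM in Alb-Cre and 183, 208, 187 and 218 FPKM in Alb-WT. Cox6a1, the non-muscle form of subunit 6A, was 371, 343, 377 and 345 FPKM in Alb-Cre and 257, 300, 263 and 321 FPKM in Alb-WT. Its mean FPKM was the highest of all members. Neither gene's groups overlapped, and both had a log2 fold change of 0.34 (limma adjusted p = 0.0181 for Cox8a and 0.0238 for Cox6a1). Without Alb-Cre 1 or 3 or Alb-WT 1 or 3 the adjusted p was 0.0526 to 0.0597 for Cox8a and 0.0673 to 0.0742 for Cox6a1. Length correction removed both calls. Cox8a was 0.18 with gene length correction (adjusted p = 0.0771) and 0.14 with principal transcript length correction (0.134), and Cox6a1 was 0.19 (adjusted p = 0.081) and 0.15 (0.14). Cox6a1 was not called with quantile normalization either (0.25, adjusted p = 0.0739). Cox5b (0.45) and Cox6c (0.46), 2 further nuclear subunits, were called as well, and Cox6c lost its call with a common FPKM sum, quantile normalization and principal transcript length correction (adjusted p = 0.0527, 0.0585 and 0.0729).

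Cox4i1, Cox5a, Cox6b1, Cox7c and Cox7a2l did not pass, with log2 fold changes of 0.09 to 0.37. Cox4i1 and Cox5a encode subunits that join early in the assembly of complex IV, and Cox7a2l a factor that links complexes III and IV in supercomplexes. Cox7c, picked after its values were seen, was 232, 143, 228 and 206 FPKM in Alb-Cre and 125, 196, 120 and 187 FPKM in Alb-WT. Alb-Cre 2 lay among the Alb-WT values, and Alb-WT 2 and 4 stood far above Alb-WT 1 and 3 (log2 fold change 0.37, SE 0.21, limma adjusted p = 0.191).

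Tissue-restricted forms of complex IV subunits were scarce. Cox6b2, known as a testis form, was 0.275, 0.162, 0.0505 and 0.691 FPKM in Alb-Cre and 0.431, 0.232, 0.325 and 0.633 FPKM in Alb-WT, from 2 to 30 reads per library, and was too low to be tested. Cox7a1, the form of subunit 7A found in heart and skeletal muscle, was 1.82, 1.23, 2.4 and 0.955 FPKM in Alb-Cre and 1, 0.865, 1.46 and 1.77 FPKM in Alb-WT, from 18 to 46 reads (log2 fold change 0.18, limma adjusted p = 0.481). Its share of the summed Cox7a1 and Cox7a2 level was 1.12%, 0.812%, 1.51% and 0.726% in Alb-Cre and 0.898%, 0.857%, 1.49% and 1.63% in Alb-WT. The difference of -0.176 percentage points was within the spread between replicates (exact two-sided permutation test over 70 assignments, p = 0.514, where 0.0286 is the smallest possible).

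In complex V 11 of 17 members rose, with a median log2 fold change of 0.36. The count was 4 with a common FPKM sum, 5 with quantile normalization and 5 with principal transcript length correction. Of all rows 8.48% were called higher in the FPKM as deposited, and 5.62%, 14% and 11.9% in these settings in turn. All 4 genes of the peripheral stalk, the arm that holds the catalytic head still, were called (median 0.31), but with principal transcript length correction 1 of 4 was (median 0.18). Atp5pb, subunit b of the stalk, was 77.9, 77.6, 72.3 and 71.6 FPKM in Alb-Cre and 55.6, 57.8, 57.1 and 57.6 FPKM in Alb-WT. The gap between the groups was several times the spread within them (log2 fold change 0.39, SE 0.0575, limma adjusted p = 0.00274). Atp5o, which encodes OSCP at the tip of the stalk and has the lowest FPKM of the complex, was 10.2, 9.88, 10.3 and 8.62 FPKM in Alb-Cre and 7.77, 7.72, 7.48 and 7.27 FPKM in Alb-WT. These groups did not overlap either (log2 fold change 0.32, SE 0.0691, limma adjusted p = 0.011), but the call was lost after removal of the transcript length trend (0.20, adjusted p = 0.0951). Atp5h (0.29) and Atp5j (0.28), the remaining stalk genes, lost their calls without any 1 of 6 and of 7 libraries. With principal transcript length correction they were 0.13 (adjusted p = 0.22) and 0.16 (adjusted p = 0.164), and both were also not called with a common FPKM sum or quantile normalization.

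The c ring, which turns as protons pass, is built from a subunit whose mature form is the same from 3 genes, and all 3 were called. Atp5g1 was 42.2, 40.9, 46.1 and 41.1 FPKM in Alb-Cre and 28.9, 31.5, 28.6 and 33.1 FPKM in Alb-WT (log2 fold change 0.47, SE 0.0716, limma adjusted p = 0.00307). Atp5g2 was 58.7, 47.1, 68.1 and 57.3 FPKM in Alb-Cre and 38.7, 48.8, 41.1 and 46.4 FPKM in Alb-WT (0.39, SE 0.119, adjusted p = 0.0365). Atp5g3 was 145, 107, 145 and 128 FPKM in Alb-Cre and 92.9, 97.4, 91.4 and 108 FPKM in Alb-WT (0.42, SE 0.109, adjusted p = 0.0216). For Atp5g2 and Atp5g3 Alb-Cre replicate 2 lay within the Alb-WT range, and for Atp5g1 no library did. Leaving out any 1 of 5 libraries took the adjusted p to 0.0614 to 0.1 for Atp5g2 and to 0.0534 to 0.0653 for Atp5g3, while Atp5g1 was called under all 20 alternatives. Atp5g2 was not called with a common FPKM sum, quantile normalization or principal transcript length correction (adjusted p = 0.0765, 0.0533 and 0.0666).

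The share of Atp5g1 in the 3 c subunit genes did not differ by more than its spread in the FPKM as deposited. Atp5g1 made up 17.1%, 21%, 17.8% and 18.1% of their summed FPKM in Alb-Cre and 18%, 17.7%, 17.7% and 17.6% in Alb-WT. Alb-Cre replicate 2 alone stood high, and the difference of 0.729 percentage points had p = 0.629 (exact two-sided permutation test, 70 assignments). Without Alb-Cre replicate 2 the difference was -0.0953 points. After quantile normalization it was 1.46 points and after gene length correction 2.25 points, each with no overlap between groups (exact permutation p = 0.0286, the smallest possible). The call on this share thus changed with the scaling.

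Of the 5 genes of the catalytic F1 head and its shaft 3 rose, with a median of 0.21. The count was 0 with a common FPKM sum and with quantile normalization, where 5.62% and 14% of all rows were called higher, against 8.48% as deposited. The median was 0.38 with median-of-ratios scaling and 0.13 with a common FPKM sum. Atp5a1, the alpha subunit, was 251, 234, 252 and 253 FPKM in Alb-Cre and 222, 205, 211 and 218 FPKM in Alb-WT. Its mean FPKM was the highest of the complex. The groups did not overlap (log2 fold change 0.21, SE 0.0632, limma adjusted p = 0.0351), and without Alb-Cre 1 or 3 or any of the Alb-WT libraries the adjusted p was 0.068 to 0.0965. It was 0.222 with a common FPKM sum (fold change 0.12) and 0.0705 with quantile normalization. The catalytic beta subunit Atp5b (0.21) and the rotor shaft gene Atp5c1 (0.28) were called too, Atp5b not with a common FPKM sum or quantile normalization (adjusted p = 0.245 and 0.183) and Atp5c1 not with these or after either length correction (adjusted p = 0.0678 to 0.223), and the delta and epsilon subunits Atp5d (0.12) and Atp5e (0.38) were not. The difference in size between parts of the enzyme was not tested.

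The other 5 genes, for membrane proteins around the c ring, had a median fold change of 0.55 and 1 call among 5. The called gene was Atp5l, which encodes subunit g (0.36, adjusted p = 0.0331). Its call was lost with principal transcript length correction (0.16, adjusted p = 0.105), with a common FPKM sum (0.28, adjusted p = 0.0595) and without any 1 of 5 libraries (adjusted p = 0.0536 to 0.0916). Atp5k, for subunit e, which helps ATP synthase form dimers, had the largest fold change of all members and is described for that reason. It was 57.5, 27.5, 57.1 and 50.4 FPKM in Alb-Cre and 19.4, 39.9, 17.9 and 36.7 FPKM in Alb-WT. Alb-Cre replicate 2 lay between the low and the high pair of Alb-WT libraries, and the gene was not called (log2 fold change 0.77, SE 0.317, limma adjusted p = 0.0893). Atp5md (0.62) and Atp5mpl (0.55), for small proteins of the dimer interface, were not called either. In both, as in Atp5k, Alb-Cre replicate 2 was the lowest of its group and Alb-WT 2 and 4 lay above Alb-WT 1 and 3. Within Alb-WT the median SD of log2 values was 0.44 for these 5 genes, against 0.09 over all tested rows.

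**Figure D4:**
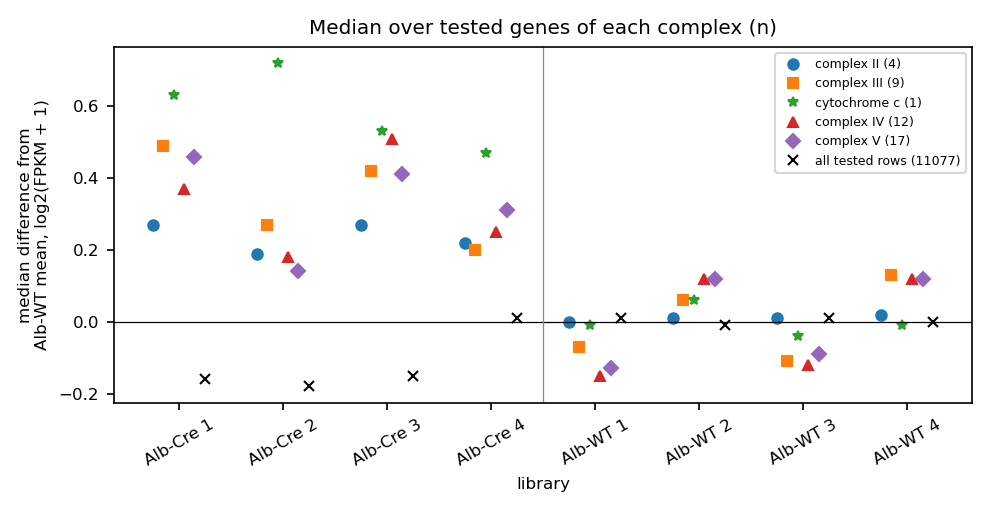
Median over the tested genes of each complex of log2(FPKM + 1) less the Alb-WT mean, in each library, with the number of genes in brackets in the legend. Every median of complexes II to V and cytochrome c lies above 0 in each Alb-Cre library, between 0.14 and 0.72, while the median of all tested rows lies at -0.18 to -0.15 in Alb-Cre replicates 1 to 3 and at 0.01 in replicate 4.

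The order of libraries within a group was shared by many members. Alb-WT replicates 2 and 4 were both above 1 and 3 for 32 of 47 members (68.1%), against 15.9% of all tested rows. In Alb-Cre, replicate 2 was below 1 and 3 for 36 members (76.6%), against 40.8% of all tested rows, and replicate 4 was the lowest for 18 (38.3%), against 20.5%. As medians over the members, log2(FPKM + 1) less the Alb-WT mean was 0.44, 0.19, 0.43 and 0.24 over the Alb-Cre libraries in order of number, against -0.09, 0.08, -0.09 and 0.11 over the Alb-WT libraries. Hence all Alb-Cre medians exceeded all Alb-WT medians, with replicates 2 and 4 of each genotype nearest to each other. Members without a call had a larger spread, with a median SD within Alb-WT of 0.16 against 0.11 (log2) for called members. The call itself depends on this spread, so that difference is in part built in.

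This order moved with transcript length. Spearman's rho across all tested rows between length and the deviation of a library from its group mean was -0.08, 0.06, -0.15 and 0.08 over the Alb-Cre libraries in order of number and 0.16, -0.13, 0.23 and -0.26 over those of Alb-WT, a description across genes, which are not independent. Members are short: 25 of the 47 tested had a principal transcript under 1000 bases. The split of Alb-WT 2 and 4 from 1 and 3 was seen in 22 of these 25, against 46% of all tested rows that short.

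Short rows were also called higher more often in general. Of the 845 tested rows with a principal transcript under 1000 bases 22.2% were called higher (median log2 fold change 0.15), and 14 of the 25 short members were (56%, median 0.37). Among rows of 1000 bases or more 7.32% were called higher (median -0.14), and 13 of 22 members were (59.1%, median 0.29). With the trend on gene length removed from each library, 23 of 47 members were called higher and 0 lower, against 12.5% and 13.7% of all rows. With the trend on principal transcript length removed, an alternative added after the data were seen, 17 members were called higher and 0 lower, against 11.9% and 13.4% of all rows. Of the 25 short members 4 were then called, against 11.5% of all short rows, and of the 22 longer members 13 were. With the trend on gene length removed 11 of the 25 short members were, against 17.5% of all short rows. After removal of the trend on principal transcript length the members' median was 0.24. Their medians per library on that scale were 0.32, 0.22, 0.33 and 0.11 in Alb-Cre and -0.05, 0.05, -0.03 and 0.04 in Alb-WT. The part of length in the remaining differences was not tested.

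**Figure D5:**
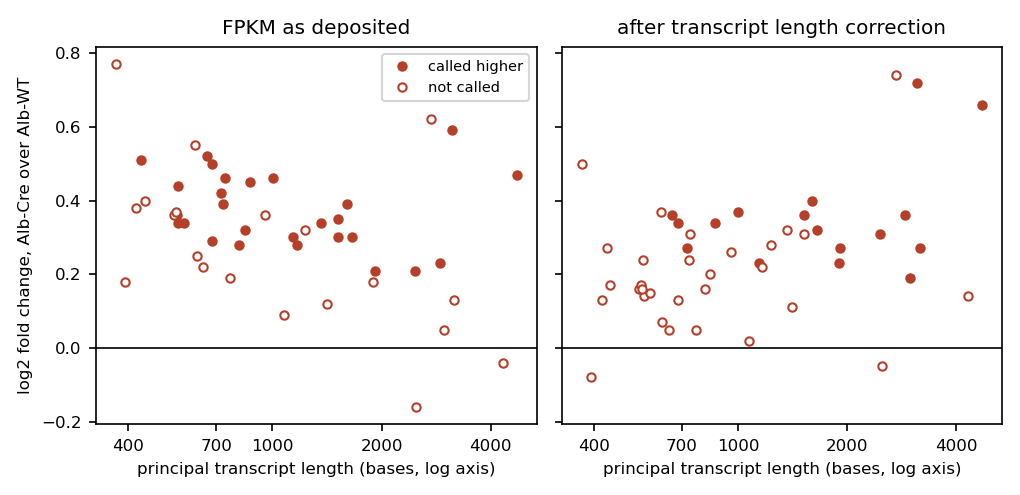
Log2 fold change of each tested member (vertical axis, Alb-Cre over Alb-WT) against the length of its principal transcript (log axis), from FPKM as deposited (left) and after the transcript length trend of each library was removed (right). Filled points were called higher. On the left, 27 points are filled across the whole range of lengths, and on the right 17 are, 4 of them under 1000 bases.

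Comparison of levels between members depends on the length used, and the ranks of level given above are by FPKM as deposited. The deposited FPKM rest on the merged exons of each gene, which were a median of 1.54 times and up to 11.8 times (Atp5l) the principal transcript. Per kilobase of principal transcript, Atp5l was 156 in Alb-Cre and 120 in Alb-WT, beside the membrane genes Atp5j2 (166 and 129), Atp5mpl (132 and 91.3), Atp5k (79.9 and 47.3) and Atp5md (36.9 and 23.9). On that scale Atp5b was highest of all members, at 460 in Alb-Cre and 396 in Alb-WT. Cox6a1 followed at 441 in Alb-Cre and 350 in Alb-WT. Sdhb (141 and 115) then lay above Sdhd (138 and 109), and Uqcrc2 (82 and 72.3) below Uqcrc1 (99.8 and 80.5). Atp5o remained low for its complex, at 22.9 in Alb-Cre and 17.8 in Alb-WT, beside the stalk genes Atp5pb (191 and 146) and Atp5h (273 and 223). Fold changes on the FPKM scale do not depend on the length used.

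The subunits of the same complexes that are encoded in mitochondrial DNA were examined together with those of complex I. Of 13 tested 1 rose and 0 fell, against 8.48% and 23.3% of all tested rows. The count called higher thus lay near the share of all rows. The median log2 fold change was -0.06. That median turned to 0.10 with median-of-ratios scaling and to 0.06 after removal of the principal transcript length trend. It was -0.17 with gene length correction and also -0.17 without Alb-Cre replicate 4. In that last setting 2 were called higher and 2 lower, against 15.2% and 46.1% of all rows. The called gene was ND3, of complex I (0.76, limma adjusted p = 0.0163), and its call was lost with gene length correction (adjusted p = 0.0756). CYTB, the redox subunit of complex III, was 7072 to 8451 FPKM in Alb-Cre and 7232 to 8024 FPKM in Alb-WT. COX1, the catalytic subunit of complex IV, was 13243 to 16842 FPKM in Alb-Cre and 15827 to 17345 FPKM in Alb-WT. COX2, COX3, ATP6 and ATP8 were at 13 to 230 FPKM in the same libraries. Near-identical nuclear copies of mitochondrial DNA make these levels uncertain.

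Most genes that assemble or accompany the complexes did not pass, and neither did 7556 of all 11077 tested rows. Their counts are read against 8.48% of all tested rows called higher and 23.3% called lower. For complex III assembly 0 of 5 were called, and for complex IV assembly 1 of 22 rose, Cox16 (0.25), which helps mature the copper site. Of these 22, 5 were called higher with quantile normalization and 4 with median-of-ratios scaling, against 14% and 15.6% of all rows. With gene length correction 1 of the 5 for complex III was called higher and 1 lower. Of 3 proteins associated with complex IV and supercomplexes, Ndufa4 (0.42) and Higd1a (0.50) rose. For complex V assembly and regulation 1 of 6 rose, Tmem242 (0.47). The difference between these lists and the members was not tested.

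For neighbouring mitochondrial functions the counts are read against 8.48% of all tested rows called higher and 23.3% called lower, and no difference from those shares was tested. In cristae organisation 7 of 11 rose and 0 fell (median 0.27), and the 3 with the smallest p were Apoo (0.47), Samm50 (0.37) and Chchd3 (0.27). Of these, Apoo and Chchd3 encode parts of the scaffold that folds the inner membrane. In the tricarboxylic acid cycle 5 of 13 rose and 0 fell (median 0.17), among them Suclg1 (0.40), Mdh2 (0.38) and Suclg2 (0.23). Without Alb-Cre replicate 4, where 46.1% of all rows were called lower, 8 of the 13 were higher and 3 lower (Idh3a, Ogdh and Fh1). Of 8 enzymes that feed ubiquinone from sources other than complexes I and II, 3 rose, such as Sqor (0.44) and Gpd2 (0.38), and the choline dehydrogenase gene Chdh fell (-0.29). Of 13 genes of coenzyme Q synthesis 3 rose, among them Coq7 (0.29), and Coq10a (-0.48) and Coq10b (-0.32), which encode coenzyme Q binding proteins, fell. Of 12 outer membrane and import genes 3 rose (Tomm5 0.50, Timm50 0.21 and Vdac1 0.24), and of 3 carriers for adenine nucleotides and phosphate 1 did, Slc25a5 (0.34). With a common FPKM sum, where 5.62% of all rows were called higher, the counts higher were 3 for cristae organisation, 2 for the tricarboxylic acid cycle, 0 for coenzyme Q synthesis and 1 for import.

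Among 14 regulators of mitochondrial biogenesis 4 fell and 1 rose (median -0.19), against 23.3% and 8.48% of all tested rows, so the counts lie near those of all rows. Ppargc1a, a coactivator of respiratory chain genes, was 1.37 to 1.63 FPKM in Alb-Cre and 2.77 to 3.35 FPKM in Alb-WT (log2 fold change -0.70, limma adjusted p = 0.000494). Esrra (-0.33), Yy1 (-0.21) and Nrf1 (-0.27) also fell, and Tfb1m (0.35) rose. Nrf1 averaged 0.668 FPKM in Alb-Cre and 1.01 FPKM in Alb-WT, and Tfb1m 2.03 and 1.39 FPKM. At such levels the scale of log2(FPKM + 1) understates fold changes. Of the factors whose letters were searched above, Gabpa had -0.07 and was not called (adjusted p = 0.499). After gene length correction 1 of the 4, Ppargc1a, was still lower (-0.53, adjusted p = 0.00127) and 1 of the 14 was higher, against 13.7% and 12.5% of all rows. With quantile normalization (13.3% of all rows lower) and with median-of-ratios scaling (15%) 1 of the 14 was lower as well, and without Alb-Cre replicate 4 (46.1%) 8 were.

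Markers of other cells in the liver moved with genotype too. Against 23.3% of all tested rows called lower, all 7 Kupffer cell markers fell, as did 4 of 5 monocyte markers, 3 of 3 neutrophil markers and 3 of 3 cholangiocyte markers. The summed level of the Kupffer list was 186 to 540 FPKM in Alb-Cre and 594 to 635 FPKM in Alb-WT, with the highest Alb-Cre value in replicate 4. In Alb-Cre replicate 4, Marco (125 FPKM, Alb-WT 83.1 to 90.4 FPKM) and C1qa (155 FPKM, Alb-WT 143 to 164 FPKM) were not below Alb-WT, and the other Kupffer cell markers were. With gene length correction 6 of the 7 were called lower, against 13.7% of all rows. The neutrophil list summed to 6.36, 6.54, 6.71 and 80.5 FPKM in Alb-Cre replicates 1 to 4 and 251 to 317 FPKM in Alb-WT. The monocyte list summed to 86.8, 91.5, 81.9 and 401 FPKM in Alb-Cre replicates 1 to 4 and 401 to 429 FPKM in Alb-WT. Hepatocyte markers summed to 30462 to 42857 FPKM in Alb-Cre, lowest in replicate 4, and to 39198 to 39975 FPKM in Alb-WT, and 1 of 7 fell (Cyp2e1, -0.37) while 0 rose. Of the rest, 0 of 2 T cell, 0 of 2 B cell, 1 of 4 endothelial, 2 of 4 stellate cell and 1 of 2 erythroid markers fell, and 1 stellate cell marker rose. Without Alb-Cre replicate 4, where 46.1% of all rows were called lower, both T cell and both B cell markers were called lower. The T cell list summed to 0.669 to 1.14 FPKM in Alb-Cre replicates 1 to 3, 3.52 FPKM in replicate 4 and 2.1 to 2.76 FPKM in Alb-WT, and the B cell list to 0.701 to 1.37 FPKM in Alb-Cre replicates 1 to 3, 5.57 FPKM in replicate 4 and 2.72 to 3.6 FPKM in Alb-WT. None of the 6 striated muscle and 3 brown fat markers was listed in the table. The part of cell composition in the members' differences was not tested.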

How the data were processed

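The study measured RNA of whole mouse liver by bulk sequencing in 4 Alb-Cre and 4 Alb-WT libraries, with groups and replicate numbers taken from the sample titles. The deposited table gives FPKM per gene, made by the authors. HISAT2 2.0.5 was used per the submitters' processing notes, which list a mouse and a human build with no role. No source used here gives the counting tool, the annotation or the strand setting. The sample descriptions also name 10x Genomics, which the labels' protocols do not.

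The table held 13703 rows for 13696 symbols and no value of 0, so a gene without reads in a library is not analysed here. Whole read numbers were recovered from the steps between FPKM values for 100% of rows (tolerance 1e-06), and for 12759 rows the implied length was within 1 bp of the merged exons of GENCODE M21. Of recovered values under 20 reads 72.5% were even, against 54.8% of all values, so they are called reads and not fragments. Totals of 32793770 to 39157210 reads limit the precision of low members such as Cox6b2.

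Genotypes were compared by limma 3.58.1 (R 4.3.3; empirical Bayes with trend, genotype as the only term, all 8 libraries) on log2(FPKM + 1), over rows averaging 0.5 FPKM or more. This scale of the fold changes understates those of low genes. Shares were tested by exact permutation over 70 assignments. Length trends were removed by a lowess fit (span 0.5) per library, for merged exon and for principal transcript length. Motifs were searched in RefSeq windows of GRCm38.p6. The code of the fit was also run on simulated data, in which all genes had the same spread setting and no library stood apart. That run does not test how well the fit suits the present libraries. Further work used scipy 1.17.1, pandas 2.3.3, numpy 2.4.6 and, for plots, matplotlib 3.10.9 under Python 3.11.15. Other scalings, filters and library subsets that were tried are given in the closing section.

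Values in every library are given for the 3 called members with the smallest p in each complex, any member called against the direction of most (0 were), the paralogues Atp5g1 to Atp5g3, Cox7a1 and Cox7a2, the lowest and highest member of each complex by mean FPKM, and Bicd2. Other lists are given by counts and up to 3 called genes. Nrf1, Tfb1m, Gabpa, Idh3a, Ogdh, Fh1, CYTB, COX1 and members said to be picked after their values were seen fall outside this rule. The members and lists were chosen with earlier results of these data known.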

Additional observations from a re-analysis of the deposited data

Results flagged for a closer look

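In 6 of 100 groups of 4 libraries (48 members and 2 shares in each genotype), a single library lay so far from the other 3 that its gap, as a part of the range, exceeded Dixon's 95% critical value. Chance alone marks about 1 in 20 such groups. Atp5d, the delta subunit of F1, was 88 FPKM in Alb-Cre replicate 3, above 76 to 76.7 FPKM in Alb-Cre replicates 1, 2 and 4. Cox5a was 30.9 FPKM in the same library, above 22.7 to 24 FPKM. Sdhd was 103 FPKM in Alb-Cre replicate 4, below 148 to 151 FPKM, and the complex II assembly factor gene Sdhaf2 was 3.87 FPKM there, above 3.19 to 3.29 FPKM. Atp5a1 was 234 FPKM in Alb-Cre replicate 2, below 251 to 253 FPKM. Sdha was 72.8 FPKM in Alb-WT replicate 2, below 79.5 to 80.6 FPKM in Alb-WT replicates 1, 3 and 4.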

How the results depend on the processing

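The direction of all 27 called members held under the 20 alternatives run, and 6 (Uqcrc1, Cycs, Cox7a2, Cox7b, Atp5pb and Atp5g1) were called in each. Instead of 27 members called higher (8.48% of all rows) there were 17 with a common FPKM sum (5.62%) and 15 with quantile normalization (14%). After removal of the principal transcript length trend, added after the data were seen, there were 17 (11.9%). With 1 library left out there were 9 to 34 (4.93% to 15.2%). The count called lower was 0 to 1 with 1 library left out, and the 1 was Sdhaf1 without Alb-Cre replicate 4. The median log2 fold change of 0.34 was 0.50 with median-of-ratios scaling and 0.30 to 0.39 with 1 library left out. Sdhaf3, at -0.04, was 0.07 with median-of-ratios scaling, 0.18 with quantile normalization, 0.11 with gene length correction (0.16 also without Alb-Cre replicate 4), 0.14 with the principal transcript correction (0.19 also without Alb-Cre replicate 4) and -0.09 to 0.01 with 1 library left out. Cox7a1 was -0.08 with the principal transcript correction, Cox7a2l -0.01 with quantile normalization and Sdhaf2 -0.01 with a common FPKM sum. Sdhaf2 was called higher under 6 of 19 alternatives. The Atp5g1 share difference of 0.729 points was 1.46 with quantile normalization, 2.25 with gene length correction and -0.0953 to 1.18 with 1 library left out. The Cox7a1 share difference was 0.232 with quantile normalization and -0.333 to -0.0387 with 1 library left out. The cause of these changes was not tested. With the replicate number as a block 8 members were called higher (5.53% of all rows). Same-numbered libraries of the groups deviated with correlations of -0.06, -0.05, -0.10 and 0.01, and the other pairs with -0.18 to 0.13. The labels do not say what the replicate numbers stand for. These correlations cannot show whether libraries were paired. The planned edgeR test was not run, because the deposited unit is FPKM, and voom on recovered reads, chosen after the data were seen, called 29 members in its place. The planned Cox4i2 share gave no value, because Cox4i2 is not among the rows analysed here. Depth limits Cox6b2 (2 to 30 reads) and Cox7a1 (18 to 46 reads).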
